A study of Danio rerio with 18 samples.

Results

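The cytosolic ribosomal protein genes of whole zebrafish larvae were taken from the count table by name, as every gene called rpl or rps followed by a digit, or rplp0, rplp1, rplp2 or rpsa, without the ribosomal protein S6 kinases. Of 31624 rows, 82 had such a name, and 81 of them reached the minimum of 50 counts summed over all libraries. The row below it, rps11l, had 25 counts, and rps19bp1, among the lowest rows above it, had 1028. By name, 34 of the 81 genes were assigned to the small ribosomal subunit and 46 to the large subunit, with rpl7l1, described below, counted among the latter. The other, rps19bp1, is named for binding the small subunit protein Rps19 and belongs to neither. All 81 passed the filter on low counts. No row carried the name rpsa; the row named rpsa2 did not meet the rule and was not counted.

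The 18 libraries were made from pools of 5 larvae of the AB strain, in 6 groups of 3. Larvae were challenged with LPS or kept as controls under 3 combinations of incubation and challenge temperature, which were 24 × 24 °C, 24 × 32 °C and 32 × 24 °C, where the first value is the temperature of embryonic incubation up to first feeding and the second that of the challenge. The challenge was immersion for 24 h in lipopolysaccharide (LPS), a glycolipid of the bacterial surface, here from Pseudomonas aeruginosa, given as 10 mg/L in the sample labels (the methods give a lower dose), and controls with the phosphate-buffered saline in which it was dissolved. No group was fed. By the methods, larvae were about 171 h old at sampling after incubation at 24 °C and 96 h after incubation at 32 °C. Incubation temperature and age in hours therefore cannot be told apart. After first feeding, the 32 × 24 °C larvae were cooled and the 24 × 32 °C larvae warmed, whereas the 24 × 24 °C larvae had no such step. The cooling cannot be told apart from incubation at 32 °C, nor the warming from challenge at 32 °C. LPS pools came from larvae that survived the challenge, and the part of survival in the results was not tested. By the methods, the experiment was run 3 times with broodstock drawn at random. Each group has 3 pools, taken here to be 1 per run, although the labels do not tie a pool to a run, and p-values measure the spread between the pools. Library totals were 1868228 to 8261920 counts, and no 2 libraries were identical. Depth differed between temperature combinations. Control totals were 5075072 to 8261920 at 24 × 24 °C, 2405212 to 2897261 at 24 × 32 °C and 2351330 to 3257523 at 32 × 24 °C. Totals of LPS-challenged libraries were 2088918 to 6679159, 1868228 to 2825333 and 2259161 to 2471792, in the same order. In a whole larva, fewer cells of a type and less RNA per cell cannot be told apart.

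A ribosome joins a small subunit, which decodes the mRNA, to a large subunit, which forms the peptide bond. Each is built of ribosomal RNA and a set of proteins, most of them needed in equal number. In vertebrates, mRNAs of ribosomal proteins, and of several elongation factors, begin with a terminal oligopyrimidine (TOP) tract, through which growth signals acting by the mTOR kinase control their translation. Ribosomes themselves are assembled in the nucleolus with the help of many further factors, which are not part of the finished particle.

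Ribosomal protein mRNAs took up a larger share of the counts in larvae challenged at 32 °C than in those challenged at 24 °C, with or without LPS, and no single gene among them was called between LPS-challenged and control larvae. In the 24 × 32 °C control larvae, the 81 genes held 9.47%, 9.78% and 10.84% of all counts, against 9.03%, 9.03% and 8.77% in the 24 × 24 °C controls. The groups did not overlap, and the means were 10.03 ± 0.718% and 8.94 ± 0.147% (SD, n = 3 each), a ratio of 1.122. In the LPS-challenged larvae, the shares were 9.63%, 9.92% and 10.47% at 24 × 32 °C, against 8.74%, 8.83% and 8.35% at 24 × 24 °C, again without overlap and with a ratio of 1.16. Group means were lowest after incubation at 32 °C. The shares were 7.70%, 7.93% and 8.64% in the LPS-challenged and 8.52%, 8.002% and 8.60% in the control 32 × 24 °C larvae. The 32 × 24 °C controls lay below the 24 × 24 °C controls without overlap (ratio 0.936), whereas 1 of the LPS-challenged 32 × 24 °C libraries lay within the range of the LPS-challenged 24 × 24 °C larvae (ratio 0.937). An exact permutation test of 3 against 3 libraries cannot fall below p = 0.1, the value of each of the 3 comparisons without overlap, so none of the 7 comparisons of shares could reach significance. Wilson 95% intervals of a share, which cover counting error only, reached at most 0.0423 percentage points to either side.

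**Figure D1:**
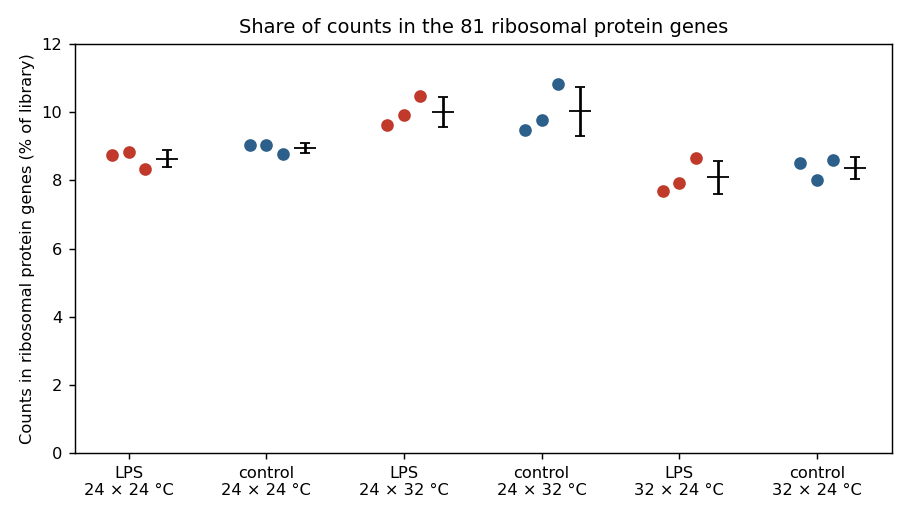
Share of all counts that fell in the 81 ribosomal protein genes (y axis, %), for each of the 18 libraries by group (x axis); red points are LPS-challenged and blue points control larvae, and the bar beside them is the mean with its SD (n = 3). Both 24 × 32 °C groups lie above both 24 × 24 °C groups, and LPS-challenged and control larvae overlap at every temperature combination.

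Both subunits moved together. The ratio of small to large subunit counts averaged 0.713 ± 0.00741 in the 24 × 32 °C controls and 0.706 ± 0.00522 in the 24 × 24 °C controls (SD, n = 3 each), with overlap between the groups (exact permutation test, two-sided p = 0.3). In the other 6 comparisons, the exact p of this ratio was between 0.4 and 0.9. The share of counts held by the 50 other genes with most counts differed between libraries (23.3% to 31.3%); with those genes removed, the ratio of the shares was 1.17 for the 24 × 32 °C over the 24 × 24 °C controls and 0.921 for the 32 × 24 °C over the 24 × 24 °C controls, without overlap in either comparison.

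Gene by gene, counts were compared with edgeR's quasi-likelihood test after scaling by trimmed mean of M-values (TMM), and levels below are given as CPM, the counts relative to the same scaled library sizes. CPM are not corrected for gene length, so levels are compared between groups and not between genes. A gene was called at a Benjamini-Hochberg adjusted p under 0.05 over the 15722 genes tested. Between control larvae, 39 of the 81 ribosomal protein genes rose with challenge at 32 °C and 0 fell, among 20 of 34 small subunit and 19 of 46 large subunit genes. Over all genes, 4.13% were called higher and 3.86% lower in this comparison. The median log2 fold change of the 81 was 0.37, against 0.00 over all genes tested, and 80 of 81 were positive, against 50.3% of all genes. In 71 of 81 genes, every 24 × 32 °C control library lay above every 24 × 24 °C control library, and in 1 below; over all genes, 16.7% and 16.6% did so.

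With a change of at least 1.5-fold as a further condition, 1 gene was called, against 3.01% of all genes called higher at that size. At an unadjusted p under 0.05, 68 were higher and 1 lower (11.4% and 11.3% of all genes). The number called depended on single libraries, being 4 without 24 × 24 °C control replicate 3, 13 without replicate 1 and 20 without replicate 2, and 4 without 24 × 32 °C control replicate 3 and 17 without replicate 2. The median over these and the other fits with 1 library left out was 0.29 to 0.43, and of the 39 genes only rps25, rpl32 and rpl36 were called in all 18 of them. Shares of all genes called in these fits are not given here, so the changed numbers cannot be read as particular to ribosomal protein genes. Without scaling factors, on library totals alone, the median of all genes moved to -0.18 in this comparison and that of the ribosomal protein genes to 0.19, which left 6 called higher, 1 called lower (rpl7l1) and 74 positive. Relative to all genes, the ribosomal protein genes then stood 0.37 higher, as they did with TMM. Scaling factors shift all genes of a library alike, so this difference was bound to stay nearly the same and adds no support.

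The clearest rises were in proteins of both subunits. Rps25, a small subunit protein that in yeast and human cells is needed for translation from certain viral internal entry sites, had 1220, 1325 and 1567 CPM in the 24 × 32 °C controls, against 921, 971 and 885 CPM in the 24 × 24 °C controls. The 24 × 32 °C libraries all lay above, by 0.57 on the log2 scale (standard error 0.12, edgeR adjusted p = 0.00624). The large subunit gene rpl32 had 1240, 1197 and 1407 CPM in the 24 × 32 °C and 858, 920 and 880 CPM in the 24 × 24 °C controls (log2 fold change 0.53). Rpl36, also of the large subunit, had 787, 799 and 909 CPM in the 24 × 32 °C and 577, 619 and 587 CPM in the 24 × 24 °C controls (log2 fold change 0.49). Rps18, which sits in the head of the small subunit, had 1244, 1324 and 1579 CPM in the 24 × 32 °C and 915, 1031 and 957 CPM in the 24 × 24 °C controls (log2 fold change 0.51). Neither rpl32, rpl36 nor rps18 overlapped between the 2 groups, and edgeR's adjusted p was 0.00624 for rpl32 and rpl36 and 0.00701 for rps18. Like rps25, they were named for their small p, so the lack of overlap adds no support. The call of rps18 was lost without 24 × 32 °C control replicate 3, the library with the highest share of ribosomal protein counts.

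**Figure D2:**
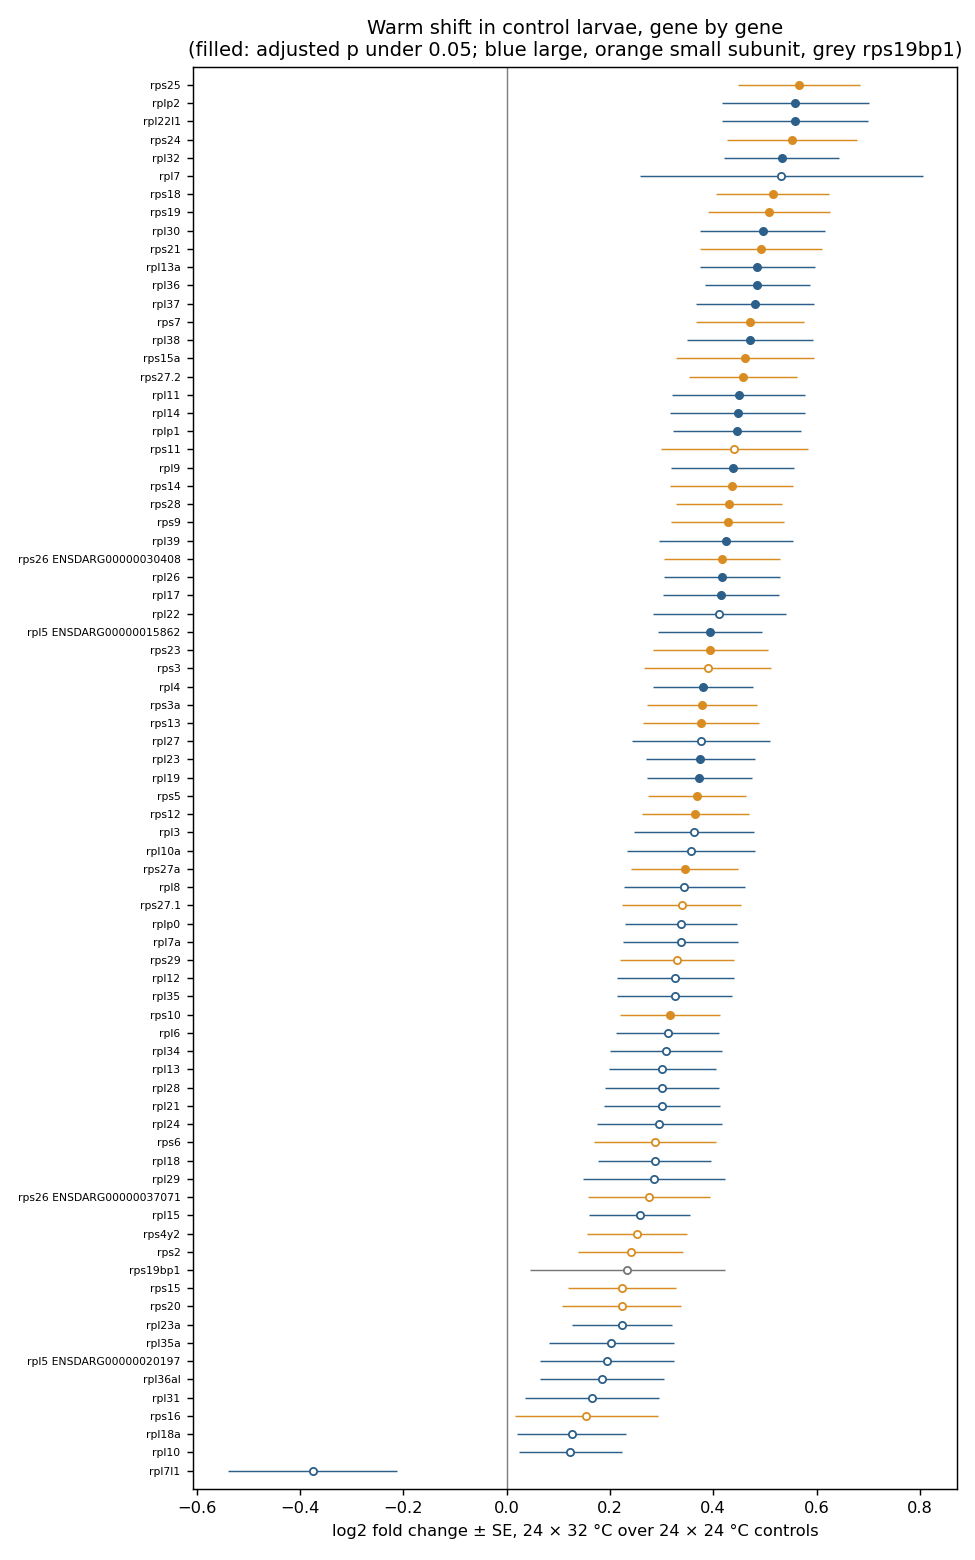
Log2 fold change of 77 of the 81 ribosomal protein genes (y axis, sorted; the other 4 rows are not shown) in control larvae at 24 × 32 °C over 24 × 24 °C (x axis), with its standard error; filled points are the 38 of these genes called, blue is the large and orange the small subunit, and rps19bp1 is grey. Apart from rpl7l1 all points lie above 0, and most lie between 0.20 and 0.51, the 10th and 90th percentiles of the 81.

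Among members with a known role beyond the ribosome's core, the stalk proteins, which recruit the elongation factors to the large subunit, gave 2 calls of 3. Rplp2 had 959, 903 and 1162 CPM in the 24 × 32 °C controls, against 679, 722 and 651 CPM in the 24 × 24 °C controls. It rose by 0.56 on the log2 scale (edgeR adjusted p = 0.0192), and rplp1 by 0.45 (edgeR adjusted p = 0.0296). For rplp0, which anchors the stalk, the log2 fold change was 0.34 (edgeR adjusted p = 0.0566) and the call was missed. Rps6, the substrate of the S6 kinases below mTOR, had a log2 fold change of 0.29 (edgeR adjusted p = 0.147), also not called.

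Rpl5 and Rpl11 bind 5S ribosomal RNA and, when ribosome assembly is disturbed, hold the p53 inhibitor Mdm2. Rpl11 rose by 0.45 on the log2 scale (edgeR adjusted p = 0.0352). Of the 2 rows named rpl5, ENSDARG00000015862 rose by 0.39 (edgeR adjusted p = 0.0196), whereas ENSDARG00000020197 had 1747, 2068 and 2465 CPM in the 24 × 32 °C and 1789, 1923 and 1780 CPM in the 24 × 24 °C controls, with overlap. Rps19, the gene most often mutated in human Diamond-Blackfan anaemia, had 1128, 1294 and 1551 CPM in the 24 × 32 °C controls, against 935, 919 and 940 CPM in the 24 × 24 °C controls. It did not overlap and rose by 0.51 (edgeR adjusted p = 0.0121). Rps27a, made as a fusion with ubiquitin, rose by 0.34 (edgeR adjusted p = 0.0435). For rpl10, one of the last proteins to join the large subunit, the log2 fold change was 0.12 (edgeR adjusted p = 0.505), one of the lowest values of the 81.

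LPS-challenged larvae gave the same direction with a separate set of libraries, since the 24 × 32 °C and 24 × 24 °C LPS pools are not those of the controls. By the methods, however, LPS-challenged and control larvae were divided from the same incubated batches of eggs. All 18 libraries also share 1 fit, so the LPS-challenged larvae are no independent replication. Here 21 of 81 genes rose and 0 fell, with 2.01% of all genes called higher and 1.74% lower. The median log2 fold change was 0.34, against 0.03 over all genes, and 77 of 81 were positive, against 53.3% of all genes. At an unadjusted p under 0.05, 60 were higher and 0 lower (10.5% and 8.85% of all genes), and 2 genes, rpl13a and rpl22l1, were called with a change of at least 1.5-fold (1.62% of all genes called higher at that size). In 68 genes the 24 × 32 °C libraries all lay above the 24 × 24 °C libraries, and in 1 below (11.9% and 12.2% of all genes). Of the genes called, 18 were called in both treatments. This count too rested on few libraries, being 1, 4 and 7 without LPS-challenged 24 × 24 °C replicate 1, 2 and 3, 7 and 6 without LPS-challenged 24 × 32 °C replicate 2 and 3, and 13 without 24 × 24 °C control replicate 2, which belongs to neither group compared. On library totals alone 8 were called, all higher, and the median was 0.23 with that of all genes at -0.09.

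Rpl13a, of the large subunit and known in human monocytes as part of a complex that silences inflammatory mRNAs, gave the smallest p. It had 1375, 1598 and 1521 CPM in the LPS-challenged 24 × 32 °C larvae, against 974, 1023 and 968 CPM in the LPS-challenged 24 × 24 °C larvae (log2 fold change 0.60, standard error 0.11, edgeR adjusted p = 0.00331). The ranges lay far apart, which adds no support, since rpl13a was named for its small p. Of the 21 genes only rpl13a was called in all 18 fits with 1 library left out. Rps19 had 1202, 1225 and 1409 CPM in the LPS-challenged 24 × 32 °C and 842, 895 and 905 CPM in the LPS-challenged 24 × 24 °C larvae. Its log2 fold change of 0.54 (edgeR adjusted p = 0.0129) was close to that between controls. Rpl3, which lies near the peptidyl transferase centre, rose by 0.54 (edgeR adjusted p = 0.0110), rps18 by 0.52 (edgeR adjusted p = 0.0103) and rpl19 by 0.49 (edgeR adjusted p = 0.00905).

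**Figure D3:**
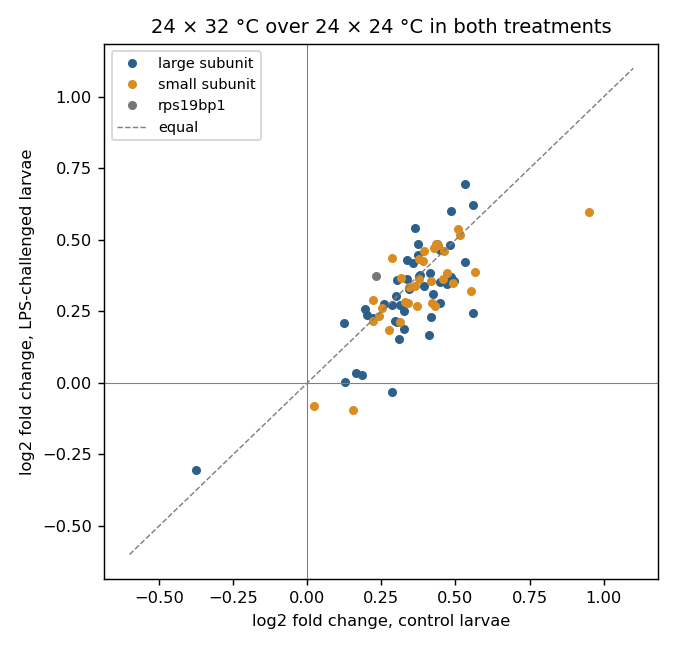
Log2 fold change at 24 × 32 °C over 24 × 24 °C of each ribosomal protein gene in LPS-challenged (y axis) and control larvae (x axis), with large subunit genes in blue, small subunit genes in orange and rps19bp1 in grey; the dashed line marks equal values. In 77 of 81 genes both values are positive, and the correlation across the 81 genes, which share a fit and are no independent replicates, was 0.758 (Pearson).

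Incubation at 32 °C, which was followed by cooling to 24 °C, gave smaller and opposite values. Between the 32 × 24 °C and 24 × 24 °C controls, edgeR called 0 of the 81 genes, with 0.216% of all genes called higher and 0.299% lower. At an unadjusted p under 0.05, 15 were lower and 0 higher, against 6.69% and 5.99% of all genes, and DESeq2 called 1, the small subunit row rps4y2, lower. The median log2 fold change was -0.16, against 0.01 over all genes, and 6 of 81 were positive, against 50.9% of all genes. In 41 genes all 32 × 24 °C controls lay below all 24 × 24 °C controls, and in 1 above; over all genes, 10.8% and 10% did so. On library totals alone, the median was -0.09 with that of all genes at 0.07, and 69 remained negative.

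The lowest p belonged to the row named rpl36al, a large subunit protein whose name is that of a human gene copy. It had 1312, 1085 and 1181 CPM in the 32 × 24 °C controls, against 1648, 1632 and 1494 CPM in the 24 × 24 °C controls, without overlap. Its log2 fold change was -0.42 (standard error 0.12, edgeR adjusted p = 0.129). The large subunit gene rpl28 had 743, 633 and 699 CPM in the 32 × 24 °C and 924, 923 and 805 CPM in the 24 × 24 °C controls, with a log2 fold change of -0.35 (edgeR adjusted p = 0.156). Neither passed the test. Neither overlapped, but both were named for their small p, so the lack of overlap adds no support. On the other side, rpl7l1 had a log2 fold change of 0.28 and rpl7 one of 0.26 (edgeR adjusted p = 0.478 and 0.758).

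Between LPS-challenged larvae, edgeR again called 0 of 81 for incubation at 32 °C over 24 °C (0.178% of all genes called higher and 0.089% lower). At an unadjusted p under 0.05, 17 were lower and 0 higher, against 4.25% and 4.9% of all genes, and DESeq2 called 1, lower. The median was -0.14, against 0.01 over all genes, and 9 were positive, against 52% of all genes. Of the 72 that were negative, 69 were negative between controls too. In 25 genes all LPS-challenged 32 × 24 °C libraries lay below all LPS-challenged 24 × 24 °C libraries, and in 0 above, where 8.09% of all genes lay below and 8.09% above. Without 32 × 24 °C control replicate 1 or 24 × 32 °C control replicate 1, neither of which belongs to the groups compared, edgeR also called 1, lower. Rpl22 had 856, 729 and 851 CPM in the LPS-challenged 32 × 24 °C larvae, against 1017, 1009 and 1215 CPM in the LPS-challenged 24 × 24 °C larvae, without overlap (log2 fold change -0.41, standard error 0.13, edgeR adjusted p = 0.240). Rpl36al had 1251, 1033 and 1306 CPM in the LPS-challenged 32 × 24 °C and 1551, 1508 and 1737 CPM in the LPS-challenged 24 × 24 °C larvae, also without overlap and with the same log2 fold change of -0.42 as between controls (edgeR adjusted p = 0.179). Rpl22 and rpl36al were named for their small p, so the lack of overlap adds no support.

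**Figure D4:**
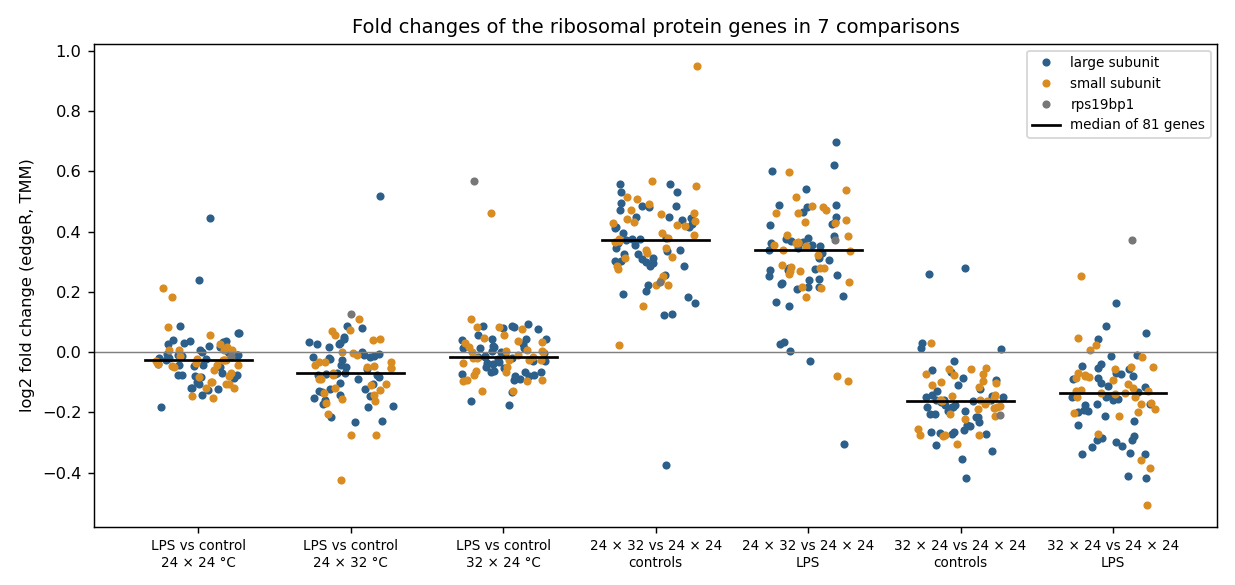
Log2 fold change (y axis) of the 81 ribosomal protein genes in each of 7 comparisons (x axis), with the first-named group over the second; blue is the large and orange the small subunit, grey is rps19bp1, and black bars are medians. The medians are 0.37 and 0.34 for challenge at 32 °C, -0.16 and -0.14 for incubation at 32 °C, and -0.07 to -0.02 for LPS.

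Between LPS-challenged and control larvae, edgeR called no ribosomal protein gene at any temperature combination, and DESeq2 called 0 in each. At 24 × 24 °C 0 of 81 were called, where 0.235% of all genes were called higher and 0.191% lower. At 24 × 32 °C 0 were called, where 1.48% of all genes were higher and 0.674% lower, and at 32 × 24 °C 0, where 0.0191% were higher and 0.0127% lower. At an unadjusted p under 0.05, 1 gene was higher and 0 lower at 24 × 24 °C (3.26% and 3.57% of all genes), 1 higher and 1 lower at 24 × 32 °C (9.62% and 7.15%), and 1 higher and 0 lower at 32 × 24 °C (3.24% and 2.14%). The median log2 fold changes were -0.03, -0.07 and -0.02 in the order 24 × 24 °C, 24 × 32 °C and 32 × 24 °C, with standard errors of single genes of 0.11 in the median, and each median took either sign among the fits with 1 library left out. Of the 81, 26 were positive at 24 × 24 °C, 17 at 24 × 32 °C and 35 at 32 × 24 °C, against 49.9%, 50.2% and 50.3% of all genes. At 24 × 24 °C, 3 genes were higher without overlap and 14 lower (9.24% and 9.59% of all genes), at 24 × 32 °C 1 and 10 (10% and 9.91%), and at 32 × 24 °C 1 and 0 (4.39% and 4.11%). The shares of counts in the 81 genes overlapped at each combination, with ratios of LPS-challenged over control larvae of 0.966 at 24 × 24 °C (exact permutation test, two-sided p = 0.2), 0.997 at 24 × 32 °C (p = 1) and 0.966 at 32 × 24 °C (p = 0.5). Of the large subunit genes alone, the share at 24 × 24 °C was lower without overlap, at 4.88% to 5.155% in LPS-challenged and 5.16% to 5.28% in control larvae (p = 0.1, exact, the smallest possible), and the subunit shares overlapped at the other combinations. The ratio over the 81 genes at 24 × 32 °C was above 1, at 1.016, 1.002 and 1.039, without LPS-challenged replicate 1 or 2 or control replicate 3.

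Whether the LPS effect differed between temperatures was tested as an interaction in edgeR, which called 0 of the 81 genes for challenge and 0 for incubation temperature, as did DESeq2. For challenge temperature, 0.00636% of all genes were called higher and 0 lower. At an unadjusted p under 0.05, 0 of the 81 were higher and 0 lower for challenge temperature (4.54% and 3% of all genes), and 1 higher, rps19bp1, and 0 lower for incubation temperature (1.42% and 1.15%). Positive differences numbered 33 for challenge and 45 for incubation temperature, against 51.5% and 51.2% of all genes. The median difference of LPS effects was -0.01 for challenge and 0.02 for incubation temperature on the log2 scale.

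Rpl7l1 stood apart from the other 80 genes. Named for its likeness to the large subunit protein Rpl7, it is known in human cells from assembling large subunits rather than from the mature ribosome. It had 27.6, 28.0 and 29.7 CPM in the 24 × 32 °C controls, against 37.0, 36.5 and 37.2 CPM in the 24 × 24 °C controls, lower without overlap (log2 fold change -0.38, standard error 0.16, edgeR adjusted p = 0.171). With LPS it had 49.8, 51.9 and 48.8 CPM at 24 × 24 °C, against the same 37.0, 36.5 and 37.2 CPM in the controls, and 44.8, 33.1 and 45.0 CPM at 24 × 32 °C, against the same 27.6, 28.0 and 29.7 CPM in the controls. Neither LPS comparison overlapped, and the log2 fold changes were 0.45 (unadjusted p = 0.00812, edgeR adjusted p = 0.342) and 0.52 (unadjusted p = 0.00705, edgeR adjusted p = 0.122). At 32 × 24 °C, it had 33.5, 53.7 and 55.7 CPM in the LPS-challenged and 45.9, 42.6 and 45.8 CPM in the control larvae, with overlap. None of these passed the test in the fit of all libraries. In a fit of the 6 libraries of 24 × 24 °C alone, LPS raised rpl7l1 by 0.45 (edgeR adjusted p = 0.0291), and without LPS-challenged 32 × 24 °C replicate 1 it did so at 24 × 32 °C by 0.51 (edgeR adjusted p = 0.0499), the only alternatives in which any of the 81 was called for LPS. Its correlation with the summed level of the members across the 18 libraries was -0.57, as a description, where the next lowest were 0.41 for rps19bp1 and 0.55 for rpl7.

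Rpl7 itself was the most variable of the abundant members. It had 1139, 1573 and 1541 CPM in the 24 × 32 °C controls, against 875, 1029 and 1036 CPM in the 24 × 24 °C controls, and 788, 1250 and 1483 CPM in the 32 × 24 °C controls. Its log2 fold change for challenge at 32 °C was 0.53 with a standard error of 0.27, the largest of the 81, where the median member had 0.11. Rps19bp1 was measured on few counts and had 14.2, 21.9 and 20.8 CPM in the LPS-challenged 32 × 24 °C larvae, against 12.3, 11.8 and 14.5 CPM in the 32 × 24 °C controls, with overlap (log2 fold change 0.57, unadjusted p = 0.0108, edgeR adjusted p = 0.694).

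Rows that share a name, or come from a pair of related genes, were read with care, since reads of near-identical copies may be split between them and the sources used here do not say how such reads were counted. Rpl22l1, whose paralogue Rpl22 holds down its expression in mice, rose with challenge at 32 °C between controls by 0.56 (edgeR adjusted p = 0.0190) and between LPS-challenged larvae by 0.62 (edgeR adjusted p = 0.0161). Its share of the counts of rpl22 and rpl22l1 averaged 23.8% in the 32 × 24 °C controls and 19.7% in the 24 × 24 °C controls, without overlap (p = 0.1, exact). Between LPS-challenged larvae, the share averaged 24.5% at 24 × 32 °C and 25.1% at 32 × 24 °C, against 19.2% at 24 × 24 °C, without overlap with either (p = 0.1 each, exact). Between the 24 × 32 °C and 24 × 24 °C controls it overlapped, at 21.2% and 19.7% (p = 0.4, exact), and LPS-challenged and control larvae did not overlap at 24 × 32 °C (p = 0.1, exact) but did at the other combinations. In all, 7 such pairs were compared in 7 comparisons each, and no exact p could be below 0.1. The rpl22 pair was not the only one without overlap. At 24 × 24 °C, rps27.1 held 51.7% of the counts of rps27.1 and rps27.2 in LPS-challenged and 50.8% in control larvae. At 32 × 24 °C, it held 48.3% and 50.8% (p = 0.1 each, exact). At 24 × 32 °C, its shares in LPS-challenged and control larvae overlapped. The share of rps27.1 also differed by temperature. It was lower at 24 × 32 °C than at 24 × 24 °C without overlap, at 48.65% against 50.8% in control and 50.2% against 51.7% in LPS-challenged larvae. At 32 × 24 °C it was lower than at 24 × 24 °C without overlap in LPS-challenged larvae (48.3% against 51.7%), and overlapped in controls. The rpl5 and rpl7 pairs had comparisons without overlap too.

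Outside the 81, other genes of protein synthesis were taken from lists by function, and their counts are read against the shares of all genes above. Of 43 tested elongation factors and other mRNAs of the TOP class, 10 rose and 3 fell between the 24 × 32 °C and 24 × 24 °C controls, with a median log2 fold change of 0.26. The initiation helicase gene eif4a2 had 108, 124 and 158 CPM in the 24 × 32 °C and 53.5, 40.9 and 38.3 CPM in the 24 × 24 °C controls (log2 fold change 1.56, edgeR adjusted p = 3.98e-06). One row of the elongation factor gene eef1a1 (ENSDARG00000039502) had 219, 207 and 195 CPM in the 24 × 32 °C and 99.1, 101 and 98.7 CPM in the 24 × 24 °C controls (log2 fold change 1.06, edgeR adjusted p = 1.39e-05). Neither gene overlapped between the groups, which adds no support, since both were named for their small p. The helicase paralogue eif4a1a went the other way, with 80.2, 106 and 122 CPM in the 24 × 32 °C and 192, 223 and 239 CPM in the 24 × 24 °C controls (log2 fold change -1.09, edgeR adjusted p = 0.000604), and eif5a2 fell by 0.74 (edgeR adjusted p = 0.00195). With LPS at 24 × 32 °C, eif4a1a and eif5a2 rose by 0.93 and 0.70 over the controls (edgeR adjusted p = 0.00792 and 0.00885), the only calls of this list by edgeR in the 3 LPS comparisons. The paper's own DESeq2 test also called eif4a1a higher with LPS at 24 × 24 °C. The paper's counts also require a change of at least 1.5-fold, which the edgeR calls here do not. Even so, the paper called more genes for LPS at 24 × 24 °C and at 32 × 24 °C than edgeR did. At 24 × 32 °C it called fewer.

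Most ribosome assembly factors that were called moved the other way. Of 111 tested, 11 fell and 2 rose between the 24 × 32 °C and 24 × 24 °C controls, with a median log2 fold change of -0.18. Those that fell with the smallest p act on ribosomal RNA in the nucleolus. Gar1, of the particles that isomerise uridines in ribosomal RNA, had 41.1, 49.1 and 47.0 CPM in the 24 × 32 °C controls, against 85.6, 83.8 and 84.2 CPM in the 24 × 24 °C controls (log2 fold change -0.89, edgeR adjusted p = 0.00101). Fibrillarin (fbl), the ribosomal RNA methylase, had 37.7, 54.1 and 50.4 CPM in the 24 × 32 °C and 85.3, 80.8 and 87.2 CPM in the 24 × 24 °C controls (log2 fold change -0.84, edgeR adjusted p = 0.00468). Nucleolin (ncl) had 365, 401 and 325 CPM in the 24 × 32 °C and 566, 526 and 559 CPM in the 24 × 24 °C controls (log2 fold change -0.60, edgeR adjusted p = 0.00617). Each was lower in all 24 × 32 °C than in all 24 × 24 °C control libraries, which adds no support, since they were named for their small p. The 2 that rose were rsl1d1 (0.74, edgeR adjusted p = 0.00965) and nsa2 (0.47, edgeR adjusted p = 0.0128). Between LPS-challenged larvae, 7 fell and 1 rose, gar1 by a log2 fold change of -0.75 (edgeR adjusted p = 0.00516) and ncl by -0.60 (edgeR adjusted p = 0.00772).

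The proteins of the mitochondrial ribosome, which are encoded by nuclear genes but serve another translation system, did not rise with the cytosolic ones. Between the controls 3 of 73 tested fell and 0 rose, with a median log2 fold change of -0.12, and mrps34 fell most clearly (-1.02, edgeR adjusted p = 0.000703). Of 26 tested proliferation genes, 2 fell and 0 rose (median -0.49), namely mcm2 of the replicative helicase (-1.01, edgeR adjusted p = 0.0124) and the mitotic kinase gene aurkb (-1.04, edgeR adjusted p = 0.0262). Of 43 genes that control translation, 3 rose and 0 fell (median 0.06), led by pdcd4, an inhibitor of the eIF4A helicases (0.97, edgeR adjusted p = 0.000108). Of 21 tested p53 pathway genes, 1 rose, the cyclin gene ccng2 (0.71, edgeR adjusted p = 0.0123). Over all genes, 4.13% were called higher and 3.86% lower in this comparison. The 3 falls of 73 mitochondrial genes and the 1 rise of 21 p53 pathway genes lay near those shares. As a sum, p53 pathway genes were higher at 24 × 32 °C without overlap, between controls (ratio 1.315) and between LPS-challenged larvae (1.208). Of all single genes, 16.7% and 11.9% lay higher without overlap, and 16.6% and 12.2% lower. Mitochondrial sums were lower without overlap between controls (0.931) and overlapped between LPS-challenged larvae (0.956). Proliferation sums overlapped between controls (0.796) and between LPS-challenged larvae (0.993). Between the 32 × 24 °C and 24 × 24 °C controls, the medians of all 6 lists had the opposite sign to those for challenge at 32 °C between controls. They were 0.14 for mitochondrial ribosomal proteins, 0.39 for proliferation, -0.01 for translation control, -0.22 for the p53 pathway, 0.09 for assembly and -0.14 for the TOP class. In that comparison, the assembly factor nop58 rose by 0.69 and ddx21 fell by 0.65 (edgeR adjusted p = 0.0223 and 0.0395), and eef1a1 ENSDARG00000039502 fell by 0.58 while eif4a1a rose by 0.76 (edgeR adjusted p = 0.0313 and 0.0441).

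**Figure D5:**
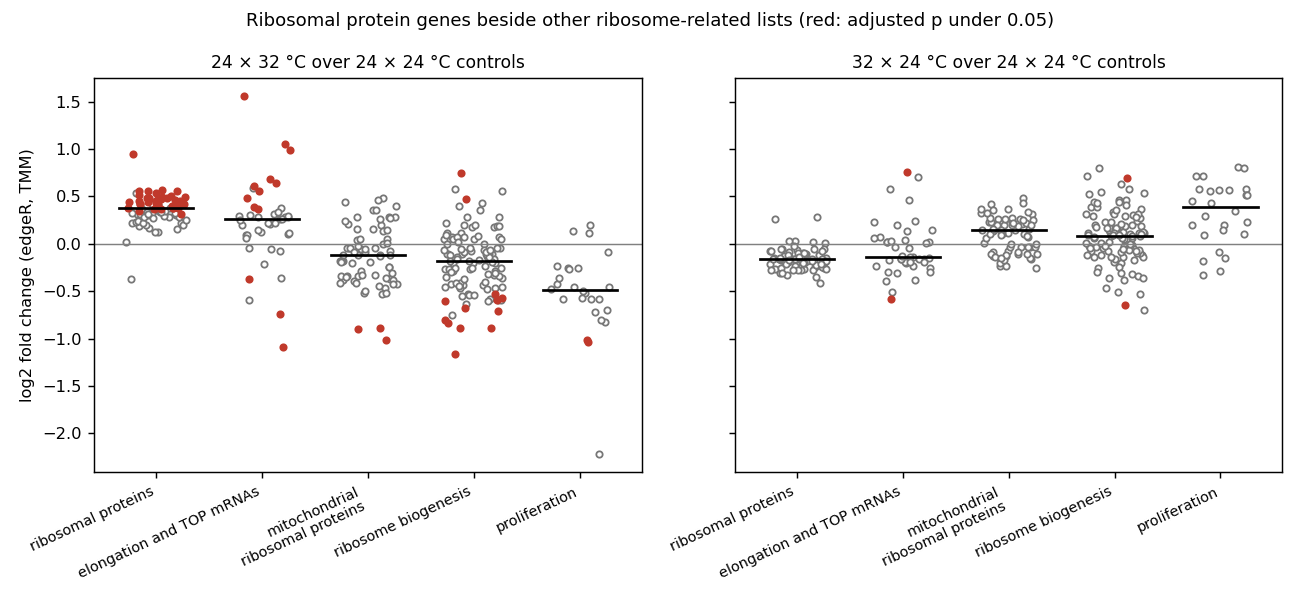
Log2 fold change (y axis) of the ribosomal protein genes and of 4 other groups of genes (x axis), at 24 × 32 °C (left) and 32 × 24 °C (right) over 24 × 24 °C in control larvae; red points are genes with an adjusted p under 0.05 and bars are medians. On the left, the medians are 0.37 for ribosomal proteins and 0.26 for the TOP class, and -0.12, -0.18 and -0.49 for mitochondrial ribosomal proteins, ribosome biogenesis and proliferation.

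Across the 18 libraries, the genes outside the 81 whose log2 CPM followed the summed ribosomal protein level most closely, of 10150 compared, were the unnamed row ENSDARG00000098458, eif3m, rpsa2, eef1g and frya, with Pearson correlations of 0.948 to 0.954. These are descriptions over libraries that share groups. Eif3m is a subunit of an initiation factor, rpsa2 carries the name of a small subunit protein that the rule leaves out, and eef1g is part of the complex that recharges elongation factor 1A.

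Markers of tissues moved with challenge and incubation temperature and with LPS too, and their part in the results was not tested. Between the 24 × 32 °C and 24 × 24 °C controls, the summed levels of 8 of 14 marker lists did not overlap. Of all single genes, 16.7% lay higher and 16.6% lower without overlap in this comparison, and 4.13% were called higher and 3.86% lower. Higher were skeletal muscle (4 of 7 markers called), at 51598 to 61047 CPM in the 24 × 32 °C and 39271 to 42317 CPM in the 24 × 24 °C controls, and skin (1 of 5), at 15343 to 21956 CPM in the 24 × 32 °C and 9570 to 12623 CPM in the 24 × 24 °C controls. Higher too were neurons (1 of 7), at 2378 to 2561 CPM in the 24 × 32 °C and 1711 to 2017 CPM in the 24 × 24 °C controls, and lens (1 of 5), at 2735 to 3351 CPM in the 24 × 32 °C and 1822 to 2103 CPM in the 24 × 24 °C controls. Lower were intestine (1 of 4 called), at 521 to 851 CPM in the 24 × 32 °C and 1005 to 1384 CPM in the 24 × 24 °C controls, and neutrophils (1 of 3), at 20.5 to 45.1 CPM in the 24 × 32 °C and 61.4 to 82.2 CPM in the 24 × 24 °C controls. Heart and photoreceptor sums were also lower, with ratios of 0.553 and 0.909 and no marker called. Of 14 markers of proliferating cells and of 3 of goblet cells, 1 each fell, with overlapping sums. Between LPS-challenged larvae, the sums of 1 of 14 lists did not overlap, those of exocrine pancreas, at 1339 to 3025 CPM for 24 × 32 °C and 504 to 1012 CPM for 24 × 24 °C, without a call. Of all single genes, 11.9% lay higher and 12.2% lower without overlap here, and 2.01% were called higher and 1.74% lower. Skeletal muscle sums were 46989 to 52060 CPM for 24 × 32 °C and 39378 to 49671 CPM for 24 × 24 °C, with 2 of 7 markers called higher, and 1 lens marker was called higher and 1 photoreceptor marker lower. Between the 32 × 24 °C and 24 × 24 °C controls no marker was called, and 5 sums did not overlap, where 10% of all single genes lay higher and 10.8% lower without overlap. Exocrine pancreas was lower, at 105 to 634 CPM in the 32 × 24 °C and 827 to 1386 CPM in the 24 × 24 °C controls, as were intestine, erythrocytes and skeletal muscle, with ratios of 0.4995, 0.636 and 0.872, while proliferating cells were higher, with a ratio of 1.224. Between LPS-challenged larvae of the same combinations, only the neutrophil sums did not overlap, at a ratio of 0.5795. Of all single genes, 8.09% lay higher and 8.09% lower without overlap there. LPS-challenged larvae had lower skin sums than controls without overlap, with ratios of 0.559 at 24 × 24 °C, 0.466 at 24 × 32 °C and 0.685 at 32 × 24 °C. Goblet cell sums were lower too (0.279, 0.493 and 0.260), as were intestine, erythrocyte and neutrophil sums at 24 × 24 °C and neuron and lens sums at 24 × 32 °C. The neutrophil markers did not move as 1, since the paper's own test at 24 × 24 °C called lyz lower and scpp8 higher with LPS. The other sums overlapped. Of all single genes, 9.59%, 9.91% and 4.11% lay lower without overlap, in the same order. Erythrocyte, liver and photoreceptor markers were detected in all groups, as in a whole larva, and macrophage markers were near the limit, with 1 of 8 rows tested.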

How the data were processed

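Reads of poly(A)-selected RNA were trimmed by the authors with cutadapt 1.12, aligned with TopHat2 2.1.0 to GRCz10 and counted per Ensembl 86 gene with HTSeq 0.6.1p1; the authors deposited raw counts without normalization. The sources used here give neither the strand setting nor the handling of reads that map to several places. CPM were computed from the counts on TMM-scaled library sizes. Names were taken from a gene table (26154 of 31624 rows named, some with human-style symbols), and 8 member rows share a symbol. Of the table's rows, 4328 had no count.

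Gene tests used edgeR 4.0.16 in R 4.3.3 (filterByExpr, minimum count 10 and minimum total 15, TMM, robust quasi-likelihood, 6 group means, all 18 libraries in 1 fit) and, as an alternative, DESeq2 1.42.0. Calls had a Benjamini-Hochberg adjusted p under 0.05 over 15722 genes. Shares of counts were compared by exact two-sided permutation tests. The procedure was tested on simulated data. The members, the gene lists and the marker lists were chosen with earlier results of these data known. The text names, per comparison, up to 5 called members (2 if none) per direction with the smallest p, the members with special roles, and up to 3 called genes per list and direction; some genes within the rule are not reported here, and rpl7, outside it, was chosen after its values were seen. Alternatives were DESeq2 size factors, library totals, no low-count filter, DESeq2, the replicate number as a block, counts thinned to the smallest library, the 6 libraries of a comparison, a 1.5-fold threshold, the 78 members with standard names and each library left out; TMM factors from other genes and the comparisons within LPS-challenged larvae were added after seeing the data.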

Additional observations from a re-analysis of the deposited data

How the results depend on the processing

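The median of the ribosomal protein genes kept its sign for challenge and for incubation temperature, in control and in LPS-challenged larvae, under all alternatives run, whereas the number of calls varied. On library totals alone, calls for challenge at 32 °C were 7 in control and 8 in LPS-challenged larvae, with medians of 0.186 and 0.230, the median for incubation at 32 °C in controls was -0.0949, and that of the difference of LPS effects by challenge temperature turned to 0.0643. Without a low-count filter, calls were 15 in control and 6 in LPS-challenged larvae (median 0.286 in LPS-challenged larvae), and with a 1.5-fold threshold 1 and 2. DESeq2 called 56 and 39 for challenge temperature, and 1 for incubation at 32 °C in either treatment. With counts thinned to the smallest library, calls for challenge at 32 °C were 34 in control and 19 in LPS-challenged larvae (medians 0.375 and 0.345). The 6 libraries of 24 × 24 °C alone gave 1 call for LPS. Leaving out 1 library gave 4 to 47 calls for challenge at 32 °C in control and 1 to 31 in LPS-challenged larvae, 0 to 1 for incubation in LPS-challenged larvae and for LPS at 24 × 32 °C, and ratios of the share of counts of 0.97 to 1.04 for LPS at 24 × 32 °C, where the direction therefore depends on single libraries. For 125 calls of single genes, 716 of 3250 alternatives lost the call and 0 reversed the sign. These were calls of members (39 and 21 for challenge at 32 °C in control and LPS-challenged larvae) and of genes of the other lists. The alternatives reuse most or all of the same libraries, so a reversed sign was unlikely from the start. The share of all genes called under each alternative is not given here. The changes in the number of calls therefore cannot be read as particular to the ribosomal protein genes. The cause of the changes in calls, medians and ratios was not tested.

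Over all groups, replicate numbers were not shown to pair libraries. Same-number libraries of different groups had a median correlation of deviations of 0.018 (-0.235 to 0.559, 45 pairs), against -0.014 for the 90 others. At 32 × 24 °C, however, replicate 1 was the lowest of its group in both treatments for several marker sums. In control and LPS-challenged larvae, it had 348 and 289 CPM for liver, 105 and 85.1 CPM for exocrine pancreas, and 259 and 156 CPM for intestine. Whether these pools shared a run or a stage was not tested. With the replicate block, 45 members were called for challenge at 32 °C in controls and 27 in LPS-challenged larvae, and 0 for LPS or incubation. The standard error of 0.11 of the median member and 3 libraries a group limit what could be called, so members without a call cannot be read as unchanged.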
